A study of Mus musculus with 11 samples.

Results

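The 54 genes described here encode parts of the ciliary axoneme and of the machinery that builds it, in the choroid plexus (CP) of mice with experimental autoimmune encephalomyelitis (EAE), a model of multiple sclerosis. They are all genes on the array whose symbol in the platform's annotation starts with Dnah, Dnai, Dnal, Ift, Bbs, Rsph, Tekt, Cfap or Tctn followed by a digit, 54 of 15946 named genes, and where a gene has several probes the brightest on average stands for it. CP RNA was hybridised to Illumina MouseRef-8 arrays in 11 pools, each from 3 perfused female SJL mice aged 6 to 8 weeks. There were 3 pools from the first peak of disease (onset), 3 from remission, 2 from relapse and 3 from control mice. EAE mice received PLP peptide in complete Freund's adjuvant (CFA) and pertussis toxin. Control mice received PBS in CFA with pertussis toxin, so the peptide is what the control pools lacked. Control mice were killed together with the onset mice, so that in the remission and relapse comparisons the later collection and the disease phase cannot be told apart.

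Cilia are built on an axoneme of doublet microtubules. Dynein arms on the doublets slide them, radial spokes and the central pair set the order of sliding, and tektins and other proteins inside the doublets stiffen them. Intraflagellar transport (IFT) trains carry building material along the axoneme, with IFT-B needed for transport to the tip and IFT-A for the return. The BBSome moves membrane proteins on these trains, and the tectonic proteins belong to the transition zone, the gate at the base of the cilium. The CP epithelium carries tufts of cilia on the surface that faces the cerebrospinal fluid, and the ependyma that lines the ventricles next to it beats motile cilia.

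Ciliary genes are known targets of RFX factors, which bind the X-box, and of the forkhead factor Foxj1. Promoters were therefore read from RefSeq (build GRCm38.p6, 250 bases before to 50 bases after the transcription start), where 47 of the 54 genes had an entry. The short RFX motif GTTGCC, searched on both strands, was found in 18 of 47 promoters (38.3%), against 12.7% of the promoters of all 27025 genes in the table and 12.0% of those of genes on the array. The full palindrome, GTTNCC followed by 2 bases and its reverse complement GGNAAC, was found in 3 of 47 (6.38%), against 0.444% of all promoters, and it overlaps the short motif where its N is a G. The forkhead motif TGTTTAC was found in 3 of 47 (6.38%), against 3.55% of all. The 4 promoters below, 5′ to 3′ on the gene's strand, are shown because they carry the palindrome in genes above background here (Bbs7 and Cfap20dc) or several copies of the short motif (Cfap161 and Ift57), with the palindrome or the short motif in capitals, on either strand. They lie at chr3:36613340-36613639 (minus strand, Bbs7), chr14:8666241-8666540 (minus strand, Cfap20dc), chr7:83794790-83795089 (minus strand, Cfap161) and chr16:49699044-49699343 (plus strand, Ift57).
Bbs7: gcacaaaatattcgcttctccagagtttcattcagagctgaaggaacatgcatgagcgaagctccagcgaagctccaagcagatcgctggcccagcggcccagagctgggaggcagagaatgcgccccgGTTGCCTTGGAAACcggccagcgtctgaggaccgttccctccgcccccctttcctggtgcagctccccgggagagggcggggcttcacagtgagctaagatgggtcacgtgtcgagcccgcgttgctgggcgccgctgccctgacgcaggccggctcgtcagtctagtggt
Cfap20dc: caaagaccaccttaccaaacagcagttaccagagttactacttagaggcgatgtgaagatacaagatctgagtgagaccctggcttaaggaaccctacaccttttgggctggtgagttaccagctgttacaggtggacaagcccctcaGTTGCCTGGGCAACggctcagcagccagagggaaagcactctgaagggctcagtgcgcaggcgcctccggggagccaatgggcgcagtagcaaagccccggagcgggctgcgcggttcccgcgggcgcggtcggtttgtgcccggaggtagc
Cfap161: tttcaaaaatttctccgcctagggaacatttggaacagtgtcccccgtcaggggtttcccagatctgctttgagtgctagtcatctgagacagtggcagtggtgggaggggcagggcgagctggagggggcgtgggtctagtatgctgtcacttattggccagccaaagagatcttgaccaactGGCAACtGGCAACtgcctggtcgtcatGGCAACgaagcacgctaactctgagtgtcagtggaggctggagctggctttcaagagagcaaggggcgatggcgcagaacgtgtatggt
Ift57: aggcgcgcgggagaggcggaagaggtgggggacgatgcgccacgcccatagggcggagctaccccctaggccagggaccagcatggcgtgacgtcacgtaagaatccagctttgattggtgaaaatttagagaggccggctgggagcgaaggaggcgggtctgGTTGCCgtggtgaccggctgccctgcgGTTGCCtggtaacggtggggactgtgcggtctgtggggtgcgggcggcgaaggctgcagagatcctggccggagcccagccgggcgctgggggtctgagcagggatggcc
The palindrome starts 121 bases before the transcription start of Bbs7, where it reads GTTGCCTTGGAAAC, and 102 bases before that of Cfap20dc, where it reads GTTGCCTGGGCAAC. Cfap161 has 3 copies of the short motif and Ift57 has 2. The sequences are those of the reference genome, not of the SJL strain, and a match of letters is no evidence that a factor binds there. The array signal of these 4 genes in each pool is given with the group each belongs to.

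On these arrays a probe was called above background where BeadStudio's detection p was under 0.01. That held in all 11 pools for 37 of the 54 genes (68.5%), against 34.9% of all 23978 probes. Another 3 were above background in some pools and 14 in none. The tissue label was checked against marker genes: 7 of 10 listed CP epithelial markers were on the array (Ttr, Folr1, Kl, Aqp1, Otx2, Clic6 and Cldn2), and all 7 were above background in every pool. Of 10 ependymal markers 8 were on the array, 4 were above background in all pools, and Tmem212 and Nnat were above background in none. Per pool 8687 to 10221 probes were above background, and precision is limited by how few arrays there are. Of all pairs of pools, onset pool 3 with remission pool 3 was the most alike, and without both of them, as with them, 0 of the 54 genes passed the test below against control. In whole tissue, fewer ciliated cells and less ciliary RNA per cell cannot be told apart.

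No gene of the 54 passed limma's test at an adjusted p under 0.05 at onset, in remission or in relapse against control. Among all probes the share that passed was 1.21% at onset, 0.204% in remission and 0.0125% in relapse. At an unadjusted p under 0.05, 1 gene was higher and 2 were lower at onset among the 40 genes above background in at least 1 pool, 1 was higher and 0 were lower in remission, and 1 was higher and 2 were lower in relapse. Over all 54 genes, 1 was higher and 4 were lower at onset, 1 and 0 in remission, and 1 and 2 in relapse. Over all probes, of which 55.6% were above background in no pool, 9.72%, 7.07% and 5.68% had such a p. With array weights in the fit, 5 of the 54 passed at onset (7.24% of all probes) and 0 passed in remission (1.17%) or relapse (0.133%), and these 5 are named below. Among the 37 genes above background in all pools, the median log2 fold change against control was -0.03 at onset, -0.02 in remission and -0.07 in relapse, beside -0.03, -0.02 and -0.01 for all 8371 probes above background in every pool. The log2 fold changes of the 37 ran from -0.28 to 0.30 at onset, from -0.23 to 0.26 in remission and from -0.44 to 0.34 in relapse. The 3 comparisons use the same control pools.

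**Figure D1:**
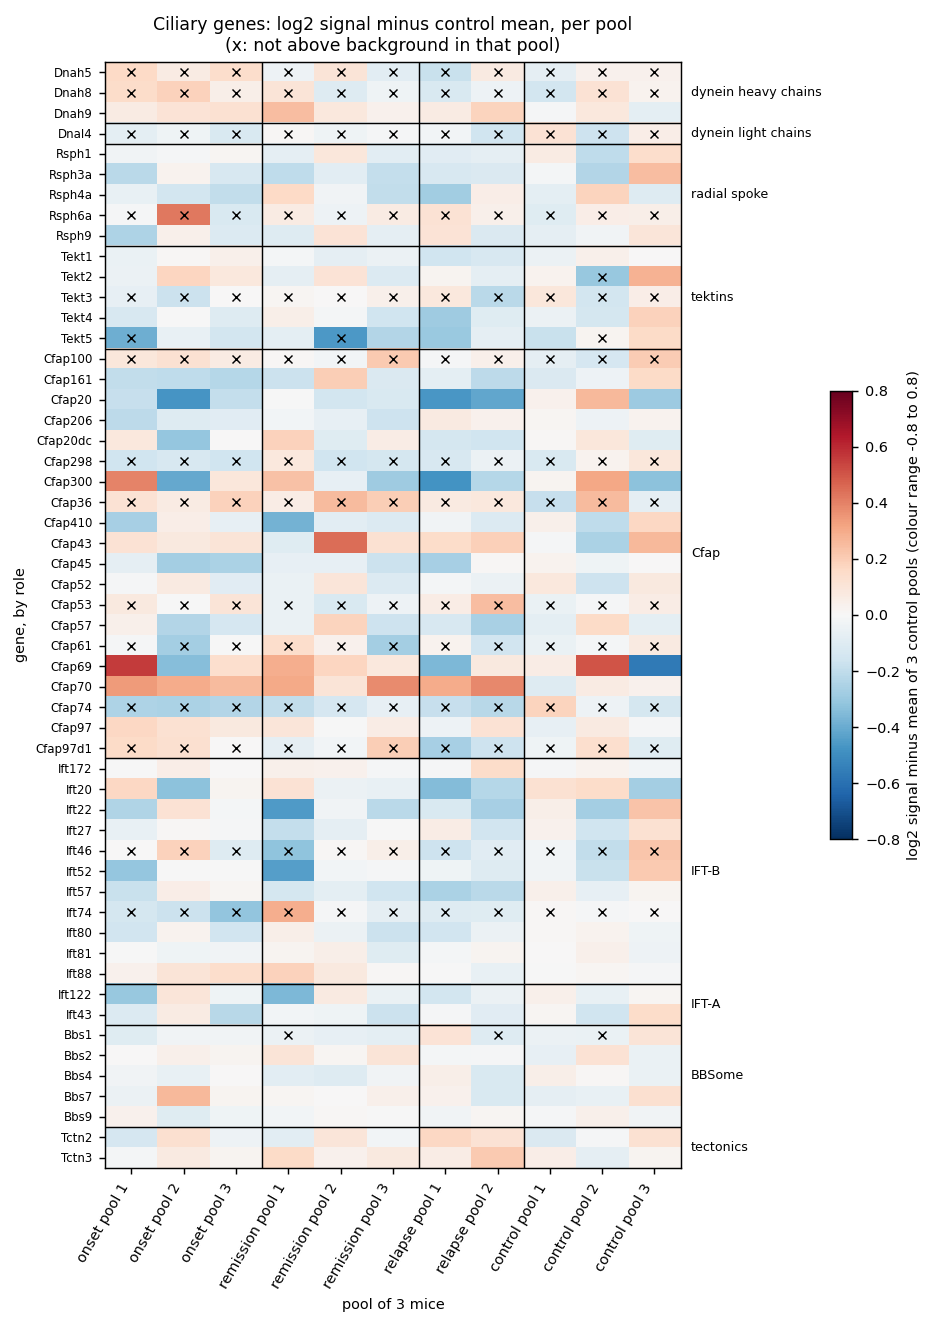
Log2 signal of each of the 54 ciliary genes, minus that gene's mean in the control pools, in each of the 11 pools and grouped by role (rows). Columns are onset, remission, relapse and control from left to right. A cross marks a gene not above background in that pool, and no level is read for the 14 genes above background in none. Most squares lie near 0 in every phase, Cfap70 is above its control mean in all 8 EAE pools, and Cfap69 and Cfap300 differ between pools of the same group.

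The intervals show how large a change in array signal could have been missed. The signal was not corrected for background, so in dim genes a change in RNA can be larger than the change in signal. The 95% confidence interval of the log2 fold change lay within -0.5 to 0.5 for 35 of the 37 genes at onset, 35 in remission and 30 in relapse (94.6%, 94.6% and 81.1%), against 85.5%, 88.5% and 86.1% of all probes above background in every pool. The exceptions at onset were Cfap20 and Cfap69, and those in remission were Cfap69 and Ift22. In relapse, with 2 pools, they were Cfap20, Cfap300, Cfap43, Cfap69, Cfap70, Ift20 and Ift22. For these genes a change beyond that size is not excluded by the interval of the probe used.

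**Figure D2:**
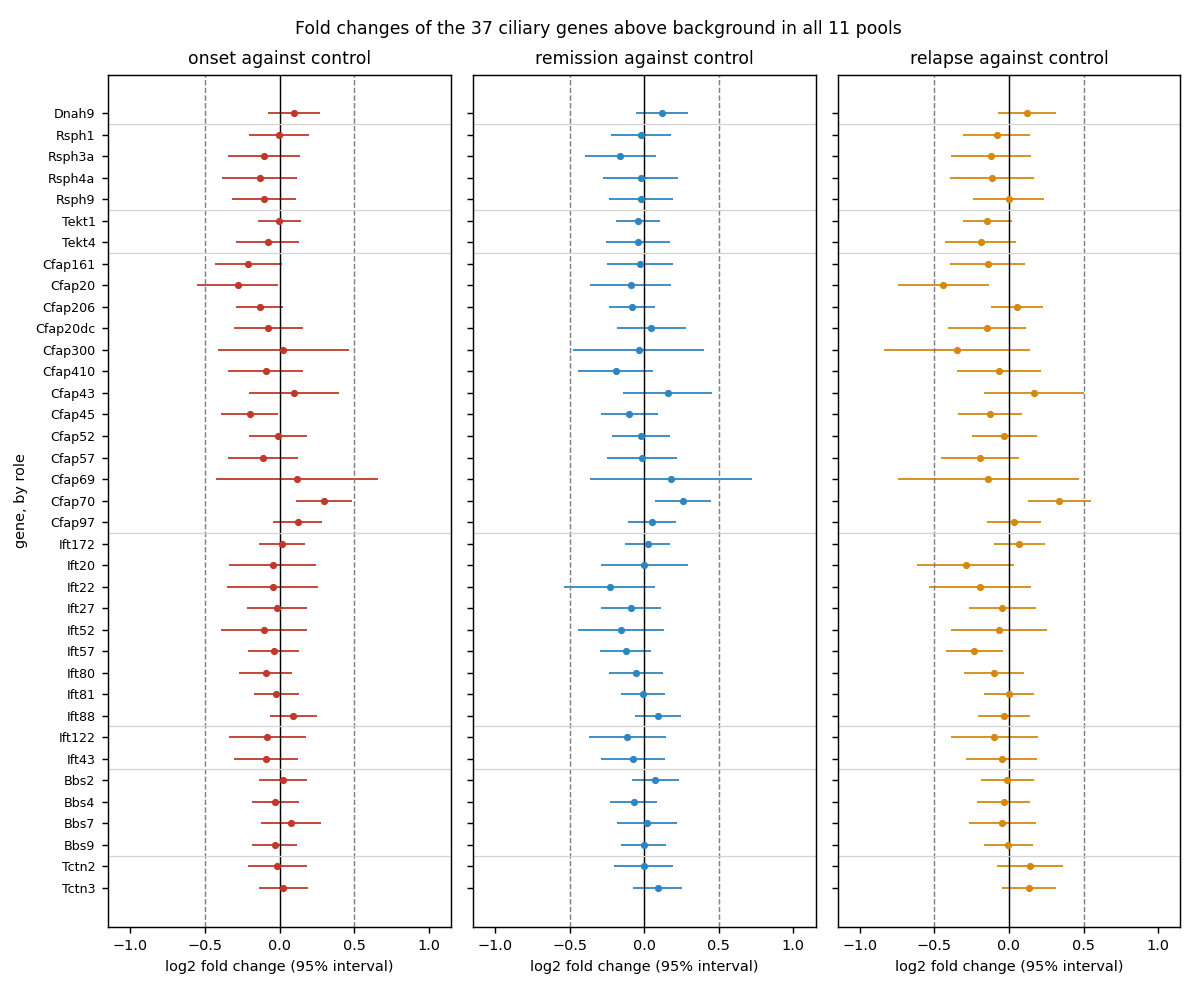
Log2 fold change of the 37 ciliary genes above background in all pools, at onset, in remission and in relapse against control, with 95% confidence intervals from limma. The intervals of 34 genes at onset, 36 in remission and 34 in relapse include 0, the point of Cfap70 lies above 0 in all 3 phases and that of Cfap20 below it, and no gene passes the test at an adjusted p under 0.05.

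Cfap70, which helps hold the outer dynein arms on the axoneme, was the gene with the smallest adjusted p in each phase against control. Its log2 signal was 11.92, 11.87 and 11.83 in the onset pools, 11.88, 11.68 and 11.96 in remission, 11.87 and 11.96 in relapse and 11.48, 11.64 and 11.61 in the controls. All 8 EAE pools lay above all 3 control pools, which held for this gene alone among the 40 and for 3.45% of 10655 probes above background in some pool on one side or the other. On the other side, 0 of the 40 had all 8 EAE pools below on the probe used, though the second probe of Tekt1, described with the tektins, did. The log2 fold change against control was 0.30 (SE 0.09, 1.23-fold, 95% interval 0.11 to 0.48, limma adjusted p = 0.164) at onset, 0.26 (SE 0.09, adjusted p = 0.438) in remission and 0.34 (SE 0.10, adjusted p = 0.646) in relapse. A second probe of Cfap70 had log2 signals of 10.85, 10.18 and 10.62 at onset, 10.68, 10.49 and 10.65 in remission, 10.33 and 10.48 in relapse and 10.43, 10.58 and 10.07 in control, and there the groups overlapped, with an onset log2 fold change of 0.19 (SE 0.16, limma adjusted p = 0.810). With array weights Cfap70 had a log2 fold change of 0.34 at onset (limma adjusted p = 0.0105).

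Cfap20, a protein of the inner junction between the tubules of a doublet, had a log2 signal of 10.69, 10.40 and 10.68 at onset, 10.86, 10.72 and 10.74 in remission, 10.40 and 10.45 in relapse and 10.90, 11.13 and 10.58 in control. Both relapse pools lay below all control pools, and the onset and control pools overlapped. Its log2 fold change was -0.44 (SE 0.14) in relapse, with a limma adjusted p of 0.750, and -0.28 (SE 0.13) at onset, with an adjusted p of 0.489. Cfap45, which sits inside the doublets, had log2 signals of 12.79, 12.59 and 12.61 at onset, 12.80, 12.80 and 12.69 in remission, 12.60 and 12.87 in relapse and 12.89, 12.83 and 12.87 in control. Its onset pools all lay below its control pools, by a log2 fold change of -0.20 (SE 0.09, limma adjusted p = 0.478), and with array weights by -0.25 (adjusted p = 0.0420). The other 3 genes that passed with array weights, Cfap74, Ift74 and Cfap36, were above background in no pool, so no fold is given for them.

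Cfap206, which docks radial spokes in Tetrahymena, had log2 signals of 11.62, 11.73 and 11.75 at onset, 11.81, 11.77 and 11.67 in remission, 11.91 and 11.87 in relapse and 11.85, 11.80 and 11.86 in control, so that both relapse pools exceeded all onset pools (log2 fold change in relapse against onset 0.19, limma adjusted p = 0.486). Its onset pools also lay below all control pools, and its relapse pools lay above them, though narrowly. Cfap161, another protein inside the doublets, had log2 signals of 10.28, 10.28 and 10.25 at onset, 10.31, 10.67 and 10.37 in remission, 10.40 and 10.27 in relapse and 10.37, 10.44 and 10.63 in control, and its onset log2 fold change was -0.21 (limma adjusted p = 0.557). Of the 20 Cfap genes 13 were above background in all pools, with log2 fold changes above 0 for 5 and below 0 for 8 at onset. Cfap20dc, which holds the palindrome in its promoter, had log2 signals of 9.36, 8.97 and 9.28 at onset, 9.46, 9.18 and 9.34 in remission, 9.14 and 9.12 in relapse and 9.29, 9.37 and 9.18 in control, and both relapse pools lay below all control pools (relapse log2 fold change -0.15, limma adjusted p = 0.949). Cfap100, Cfap298, Cfap36, Cfap53, Cfap61, Cfap74 and Cfap97d1 were above background in no pool, so their levels are not given.

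Among the dynein chains of the 54 genes only Dnah9, a heavy chain of the outer dynein arm, was above background. It had log2 signals of 12.39, 12.43 and 12.45 at onset, 12.57, 12.41 and 12.36 in remission, 12.39 and 12.50 in relapse and 12.32, 12.41 and 12.25 in control. Its log2 fold change was 0.10 (SE 0.08, limma adjusted p = 0.794) at onset, 0.12 (SE 0.08, adjusted p = 0.854) in remission and 0.12 (SE 0.09, adjusted p = 0.942) in relapse. Dnah5, Dnah8 and the light chain Dnal4 were above background in no pool.

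All 4 radial spoke genes above background (Rsph1, Rsph3a, Rsph4a and Rsph9) had log2 fold changes below 0 in all 3 phases, from -0.16 to -0.0025, and none passed the test. Of all 37 ciliary genes, 26 were below 0 at onset, 25 in remission and 28 in relapse, against the same control pools. The median of all 8371 probes above background in every pool was also below 0, at -0.03, -0.02 and -0.01. Rsph1, of the spoke head, had log2 signals of 14.58, 14.60 and 14.63 at onset, 14.54, 14.70 and 14.53 in remission, 14.52 and 14.54 in relapse and 14.67, 14.41 and 14.75 in control, with an onset log2 fold change of -0.01 (SE 0.09, limma adjusted p = 0.996). Rsph9, also of the spoke head, had log2 signals of 14.22, 14.50 and 14.36 at onset, 14.36, 14.57 and 14.39 in remission, 14.57 and 14.35 in relapse and 14.39, 14.44 and 14.56 in control. In both genes each phase overlapped control. Both relapse pools of Rsph1 lay below its onset pools. Rsph3a, of the spoke stalk, had log2 signals of 12.97, 13.22 and 13.06 at onset, 12.98, 13.10 and 12.99 in remission, 13.06 and 13.07 in relapse and 13.17, 12.95 and 13.44 in control, where each phase again overlapped control. Rsph6a, a relative of Rsph4a best known from sperm, was above background in no pool.

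Tekt1, a tektin, had the smallest spread between pools of a group of any of the 37 genes (residual SD 0.0397 on the log2 scale). It had log2 signals of 13.96, 14.02 and 14.06 at onset, 14.00, 13.94 and 13.97 in remission, 13.85 and 13.89 in relapse and 13.97, 14.06 and 14.02 in control. Both relapse pools were the lowest of the 11, by a log2 fold change of -0.14 (SE 0.08, limma adjusted p = 0.920). The second probe of Tekt1, above background in all 11 pools, had log2 signals of 13.43, 13.46 and 13.43 at onset, 13.48, 13.51 and 13.39 in remission, 13.34 and 13.49 in relapse and 13.51, 13.69 and 13.57 in control. There all 8 EAE pools lay below all 3 control pools and the relapse pools were not the lowest as a pair. Its log2 fold change was -0.15 (SE 0.08, limma adjusted p = 0.577) at onset, where the first probe had -0.0003, and it was -0.13 (SE 0.08, adjusted p = 0.830) in remission and -0.18 (SE 0.09, adjusted p = 0.882) in relapse. Tekt4 had a log2 fold change of -0.08 (SE 0.10, limma adjusted p = 0.890) at onset and -0.19 (SE 0.11, adjusted p = 0.931) in relapse. Tekt2 was above background in 10 pools and Tekt5 in 8, and Tekt3 in none.

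Of the transport genes, 9 of 11 IFT-B genes and both IFT-A genes (Ift122 and Ift43) were above background in all pools. The IFT-B genes had a median log2 fold change of -0.04 at onset, -0.06 in remission and -0.07 in relapse, with 7, 6 and 7 of the 9 below 0. Ift172 held within 13.34 and 13.51 in log2 signal over the 11 pools, at 13.36, 13.41 and 13.37 at onset, 13.40, 13.40 and 13.35 in remission, 13.35 and 13.51 in relapse and 13.35, 13.39 and 13.34 in control, with an onset log2 fold change of 0.02 (SE 0.07, limma adjusted p = 0.974). Ift57 had log2 signals of 11.13, 11.36 and 11.32 at onset, 11.17, 11.23 and 11.15 in remission, 11.05 and 11.09 in relapse and 11.35, 11.24 and 11.33 in control. Both of its relapse pools lay below all control pools, by a log2 fold change of -0.23 (SE 0.09, limma adjusted p = 0.833). Ift122 and Ift43 had onset log2 fold changes of -0.08 (SE 0.12) and -0.09 (SE 0.10), with limma adjusted p of 0.914 and 0.877.

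**Figure D3:**
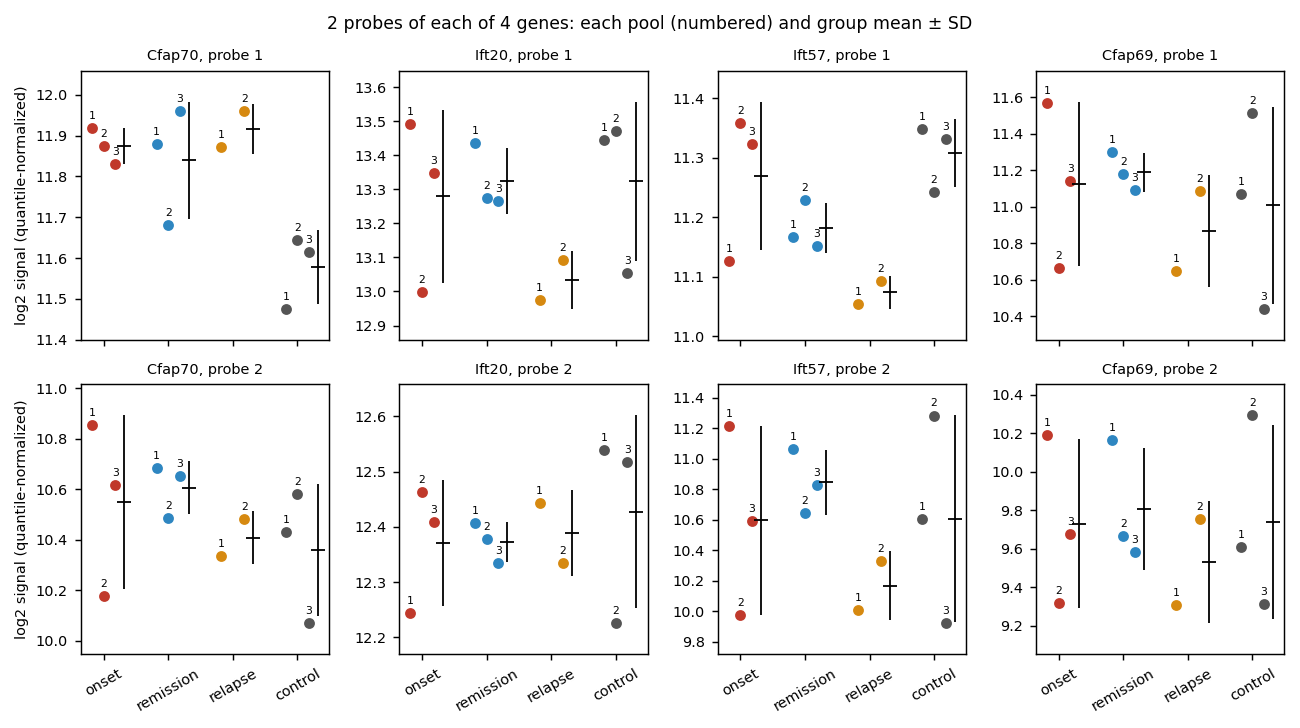
Log2 signal of the 2 measured probes of Cfap70, Cfap69, Ift57 and Ift20 in each pool (points, numbered by replicate) with the group mean and SD (bars), onset, remission, relapse and control from left to right, each panel on its own axis. The second probe of Ift57 spreads over more than 1 log2 unit within the controls while the first does not, and onset pool 1 and control pool 2, the highest of their groups on the first probe of Ift20, are the lowest of them on the second.

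Genes with more than 1 probe differed in how well the probes agreed. The second probe of Ift57 had log2 signals of 11.22, 9.98 and 10.60 at onset, 11.06, 10.64 and 10.83 in remission, 10.01 and 10.33 in relapse and 10.61, 11.28 and 9.93 in control. The first probe of Ift20 had log2 signals of 13.49, 13.00 and 13.35 at onset and 13.45, 13.47 and 13.05 in control, while its second probe had log2 signals of 12.24, 12.46 and 12.41 at onset and 12.54, 12.23 and 12.52 in control. Onset pool 1 and control pool 2 were thus the highest of their groups on the first probe of Ift20 and the lowest on its second. In relapse against control the log2 fold change of Ift20 was -0.29 (SE 0.15, limma adjusted p = 0.913) on the first probe. On the second it was -0.04 (SE 0.11, adjusted p = 0.985). Cfap69, a central pair protein, had the largest residual SD of the 37 (0.397), and its first probe had log2 signals of 11.57, 10.67 and 11.14 at onset, 11.30, 11.18 and 11.09 in remission, 10.65 and 11.09 in relapse and 11.07, 11.51 and 10.44 in control. Each phase overlapped control, and both relapse pools lay below all remission pools, though narrowly (11.086 in relapse pool 2, 11.090 in remission pool 3). The log2 fold change of this probe at onset was 0.12 (SE 0.25, limma adjusted p = 0.948). On the second probe of Cfap69 relapse and remission overlapped, at log2 signals of 9.31 and 9.76 in relapse and 10.17, 9.67 and 9.58 in remission.

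The spread within groups of the ciliary genes was near that of the array as a whole. The median residual SD of the 37 genes was 0.111 on the log2 scale, against 0.119 for all probes above background in every pool, and 4 of 37 (10.8%) exceeded 0.2, against 15.4% of all. The largest were Cfap69 (0.397), Cfap300 (0.315), Ift22 (0.206) and Cfap43 (0.201). In a count made after the values were seen, 9 of 45 probes of the ciliary genes above background in all pools (20%) were highest in the same pools of each group (onset 1, remission 1, relapse 2 and control 2), against 11.4% of all probes, and 5 of 45 (11.1%) were lowest there, against 14% of all. Both probes of Cfap69 and those of Cfap20 and Cfap300 were among the 9. Cfap300, needed for the assembly of dynein arms, had log2 signals of 9.995, 9.19 and 9.69 at onset, 9.83, 9.54 and 9.32 in remission, 9.12 and 9.38 in relapse and 9.62, 9.91 and 9.27 in control, with a relapse log2 fold change of -0.35 (SE 0.23, limma adjusted p = 0.938). Ift22, of IFT-B, lay the other way round, at log2 signals of 10.94, 11.30 and 11.17 at onset, 10.74, 11.16 and 10.97 in remission, 11.07 and 10.92 in relapse and 11.23, 10.91 and 11.42 in control, and its remission log2 fold change was -0.23 (SE 0.14, limma adjusted p = 0.838). In both genes the spread within a group was as wide as the distance between groups. Cfap43, which in Tetrahymena and Chlamydomonas is part of the link that tethers inner dynein arms, had log2 signals of 11.13, 11.09 and 11.12 at onset, 10.92, 11.46 and 11.14 in remission, 11.16 and 11.21 in relapse and 11.01, 10.76 and 11.28 in control, with an onset log2 fold change of 0.10 (SE 0.14, limma adjusted p = 0.909). A dimmer second probe of Cfap43, above background in all 11 pools, had a residual SD of 0.0698. Its log2 fold change was -0.08 (SE 0.08, limma adjusted p = 0.851) at onset. In relapse it was -0.01 (SE 0.09, adjusted p = 0.995), against 0.17 (SE 0.15, adjusted p = 0.960) on the first probe.

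The BBSome and the transition zone work at the membrane and the base of the cilium. The 5 BBSome genes on the array had log2 fold changes from -0.05 to 0.08 at onset, from -0.07 to 0.07 in remission and from -0.04 to 0.003 in relapse. Bbs9 had log2 signals of 12.53, 12.40 and 12.46 at onset, 12.47, 12.51 and 12.49 in remission, 12.47 and 12.51 in relapse and 12.48, 12.54 and 12.46 in control. Bbs7, with the palindrome in its promoter, had log2 signals of 11.28, 11.58 and 11.35 at onset, 11.34, 11.33 and 11.36 in remission, 11.36 and 11.21 in relapse and 11.26, 11.27 and 11.45 in control. Bbs4 had log2 signals of 12.12, 12.09 and 12.14 at onset, 12.06, 12.04 and 12.12 in remission, 12.19 and 12.02 in relapse and 12.19, 12.15 and 12.09 in control. In these 3 genes each phase overlapped control. Tctn2 had log2 signals of 13.03, 13.29 and 13.12 at onset, 13.08, 13.26 and 13.14 in remission, 13.33 and 13.28 in relapse and 13.05, 13.16 and 13.29 in control. Tctn3 had log2 signals of 12.75, 12.84 and 12.79 at onset, 12.93, 12.81 and 12.85 in remission, 12.83 and 12.98 in relapse and 12.83, 12.70 and 12.79 in control. The tectonic genes Tctn2 and Tctn3 had relapse log2 fold changes of 0.14 (SE 0.10, limma adjusted p = 0.942) and 0.13 (SE 0.08, adjusted p = 0.938). A second probe of Tctn3, above background in 4 pools, had a relapse log2 fold change of -0.14 (SE 0.09, limma adjusted p = 0.938). Bbs1 was above background in 8 pools.

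The phases were also compared with each other. No ciliary gene passed limma's test in remission against onset (0% of all probes), in relapse against onset (0.292%) or in relapse against remission (0.0292%). At an unadjusted p under 0.05, of the 40 genes 0 were higher and 0 lower in remission against onset, 1 was higher and 1 lower in relapse against onset, and 0 were higher and 1 lower in relapse against remission. Over all 54 genes, 1 was higher and 0 lower in remission against onset, 1 and 2 in relapse against onset, and 1 and 2 in relapse against remission. Over all probes, with or without signal above background, the shares were 4.1%, 9.23% and 5.51%. With array weights 0 ciliary genes passed in each, beside 0%, 1.51% and 0.0667% of all probes. Groups did not overlap for 2 of 40 genes (5%, against a background of 7.89% of all 10655 probes above background in some pool) in remission against onset, 7 of 40 (17.5%, background 31.4%) in relapse against onset and 10 of 40 (25%, background 26.3%) in relapse against remission. Against control they did not overlap for 6 of 40 at onset (15%, background 20%), 3 of 40 in remission (7.5%, background 13.7%) and 9 of 40 in relapse (22.5%, background 21.2%).

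The other ciliary genes examined were 62 genes on the array from lists of ciliary transcription factors, dynein assembly, the nexin link and central pair, transport motors, further Bardet-Biedl genes and the transition zone, of which 39 were above background in at least 1 pool. None of the 62 passed limma's test at onset, in remission or in relapse against control, and the median log2 fold change of the 39 was -0.08 in each. At an unadjusted p under 0.05, 0 were higher and 6 lower at onset (9.68% of the 62, against 9.72% of all probes), 1 higher and 3 lower in remission (6.45%, against 7.07%) and 0 higher and 2 lower in relapse (3.23%, against 5.68%). Of these, 4 at onset, 3 in remission and 0 in relapse were above background in at least 1 pool. With array weights 2 passed at onset (3.23%, against 7.24% of all probes), Kif3a and Dync2h1, of which Dync2h1 was above background in no pool, and 0 passed in remission or relapse. Kif3a, a subunit of the kinesin that moves trains to the tip, had log2 signals of 12.52, 12.58 and 12.35 at onset and 12.81, 12.60 and 12.86 in control, with a log2 fold change of -0.27 (SE 0.10, limma adjusted p = 0.315) and no overlap. Foxj1, the factor that drives motile ciliogenesis, had log2 signals of 9.70, 9.82 and 9.55 at onset, 9.85, 9.64 and 9.56 in remission, 9.77 and 9.91 in relapse and 9.82, 9.93 and 10.02 in control, with an onset log2 fold change of -0.23 (SE 0.10, limma adjusted p = 0.471). Of the 7 CP epithelial markers 0 were called in each phase, but 5 of them (Aqp1, Clic6, Folr1, Kl and Ttr) lay within 0.5 log2 units of the highest value on the arrays (16.15) in every pool. Their levels have little room to differ there, so no stability is read from them. The ependymal markers, 0 of 8 called in each phase, had a summed log2 signal of 15.59 to 15.71 at onset, 15.46 to 15.67 in remission, 15.52 to 15.67 in relapse and 15.35 to 15.67 in control. Dynlrb2 was the brightest of the 8 in every pool. In relapse against control, 3 of the 6 above background in some pool had log2 fold changes above 0 and 3 below 0. Of 6 leukocyte markers on the array 5 were above background in some pool. Cd3e, S100a8 and S100a9 were called higher at onset and Cd3e in remission. The summed log2 signal of the 6, of which S100a8 and S100a9 were the brightest, was 13.74 to 14.59 at onset, 12.72 to 13.81 in remission, 11.91 to 12.04 in relapse and 11.43 to 12.60 in control. The markers differed in relapse against control. The log2 fold change was 1.14 for Cd3e (limma adjusted p = 0.0800) and 0.40 for Ptprc (0.924), but -0.43 for S100a8 (0.967) and -0.49 for S100a9 (0.956). The endothelial marker Cdh5 was called higher in remission (log2 fold change 0.55, limma adjusted p = 0.0376).

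The summed signals of neuronal and astrocyte markers were higher in both relapse pools than in any other pool. Those of oligodendrocyte markers in relapse overlapped onset and remission. Taken singly, Gad1, the brightest neuronal marker, and the astrocyte marker Aqp4 were also highest in both relapse pools. Stmn2, above background in 6 pools, was so only narrowly (9.202 in relapse pool 2, 9.197 in onset pool 3). In Syt1, Slc17a7, Slc1a3 and Aldh1l1 a pool outside relapse exceeded a relapse pool. No marker of brain tissue was called against control. The oligodendrocyte markers, 3 of 4 above background in some pool, had a summed log2 signal of 12.13 to 13.32 at onset, 12.39 to 13.33 in remission, 13.29 to 13.50 in relapse and 11.55 to 13.03 in control. The neuronal markers, 4 of 6 above background in some pool, had a summed log2 signal of 11.12 to 11.65 at onset, 11.33 to 11.71 in remission, 11.87 to 12.15 in relapse and 11.40 to 11.56 in control. Gad1 was called higher in relapse against onset (log2 fold change 1.23, limma adjusted p = 0.0404). The astrocyte markers, 3 of 4 above background in some pool, had a summed log2 signal of 12.53 to 12.75 at onset, 12.23 to 12.49 in remission, 12.89 to 12.98 in relapse and 12.35 to 12.73 in control. In relapse against control the log2 fold change was 1.51 for Mbp (limma adjusted p = 0.777), 0.93 for Mag (0.580), 0.86 for Gad1 (0.525) and 0.53 for Aqp4 (0.735). It was smaller for Slc17a7 at 0.36 (0.931), Aldh1l1 at 0.30 (0.923) and Mobp at 0.25 (0.965), and the relapse pools of Mobp overlapped control. The part of these cell types in the ciliary values was not tested.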

How the data were processed

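CP RNA from 11 pools was measured on Illumina MouseRef-8 arrays. Scanned with BeadStudio by the authors, each array's probe intensities were deposited on a linear scale and unnormalized. A detection p-value of each probe, set against negative controls, was deposited beside them. The authors also deposited log2 values, quantile-normalized, which served as an alternative. The labels name the Ambion MessageAmp kit for the labelled cRNA, whereas the study's methods and the series text name the Illumina TotalPrep kit. Which array sat on which beadchip is not given in the sources used here, so beadchip was not tested as a batch.

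The log2 of the intensities was quantile-normalized without background correction (R 4.3.3, limma 3.58.1) for 23978 of 23983 probes, after dropping 5 duplicates. With 4 group means in the model, phases were set against control and against each other by limma's two-sided moderated test, and p-values were adjusted by Benjamini and Hochberg's method over all probes at 0.05. The paper describes its microarray data as representing a single experiment. The p-values therefore measure the spread between pools, not between repeated inductions of EAE. With 3 pools against 3, an exact permutation test cannot go below p = 0.1, and none is given for single genes. The fit was tested on simulated data.

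The ciliary genes and all lists of genes were chosen with earlier results of these data known. Genes were named if called, if among the 4 highest or 4 lowest log2 fold changes against control, if among the 2 brightest of their role, or if above background in some pools of a group and no pool of another. Not every gene the rule covers is given values, and Cfap206, Cfap20dc, Bbs7 and the genes outside the 54 were added after their values were seen. Alternatives were neqc, the deposited log2 values, median scaling, filtering, fits of only the groups compared, a replicate block, array weights, trend and robust variance, 1 probe per gene, every probe and leaving out pools.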

Additional observations from a re-analysis of the deposited data

How the results depend on the processing

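In no comparison did a ciliary gene pass the test under any alternative or with any pool left out, except that array weights gave 5 at onset. The weights were 3.82 for control pool 1 and 2.98 for onset pool 3, and between 0.427 and 1.37 for the other pools. The smallest adjusted p of a ciliary gene with a pool left out was 0.104 at onset, 0.332 in remission and 0.172 in relapse against control. The median log2 fold change of all 54 genes at onset was 0.0325 with median scaling, against -0.0309 as reported. With median scaling it was -0.0524 in remission against onset and -0.0797 in relapse against onset. Without onset pool 3 and remission pool 3 together it was 0.0075 in remission against control. With each pool left out in turn it ran from -0.0569 to -0.001 at onset, from -0.0502 to 0.0075 in remission and from -0.0962 to -0.0302 in relapse against control. The causes of these shifts were not tested.

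With the replicate number as a block, 0 ciliary genes passed in every comparison. The block moved the count of all probes called to 283 from 291 at onset, 8 from 49 in remission, 4 from 3 in relapse, 21 from 70 in relapse against onset and 1 from 7 in relapse against remission. Pools that share a number did not deviate together in every pair (correlations of deviations from group means from -0.586 to 0.465 over 15 pairs). Deviations of pools in a group depend on each other, so these correlations cannot show whether the numbers pair the samples. Signal over background limits the 14 genes above background in no pool, for which no level or change can be read.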

Other observations

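Onset pool 3 and remission pool 3 were the most alike of the 55 pairs of pools for the ciliary genes, with a median absolute difference of 0.0529 in log2 signal over the 37 genes above background in all pools, against 0.0592 for the next pair, a median of 0.106 and a largest value of 0.198. The likeness was not limited to the ciliary genes. Of all probes above background in both pools, 0 differed by more than 1 log2 unit between these 2 pools. In the other pairs 7 to 266 probes did. Why these pools are alike was not tested.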
